A study of Mus musculus with 18 samples.

Results

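Interleukins and their receptors were described in mouse bone marrow (BM) cells from E16.5 to the adult. The members were all genes of the deposited count matrix whose symbol starts with Il and a digit, which leaves out names of the Ilf and Ilk type. The rule found 67 of 20275 genes (0.330%), made up of 26 ligands and antagonists, 39 receptors and binding proteins, and 2 genes that are neither (Il4i1, an amino acid oxidase, and Il1bos, a transcript antisense to Il1b). Of 83 interleukin and receptor names listed for the families, 16 were not analysed here, among them Il3, Il5, Il9, Il17a and Il22.

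Interleukins are secreted proteins through which blood cells, and the stromal cells around them, act on cells that carry the matching receptor. Receptors are shared within families. The gamma-c chain Il2rg serves the receptors for IL-2, IL-4, IL-7, IL-9, IL-15 and IL-21, gp130 (Il6st) serves IL-6 and IL-11, and members of the IL-1 family signal through paired chains such as Il18r1 with Il18rap. In BM, IL-7 from stromal cells is known as a factor for B cell precursors, and the IL-33 receptor ST2 (Il1rl1) as a surface protein of mast cells and basophils.

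C57B6/J mice were sampled at E16.5, E18.5, P0 (the day of birth) and as adults. Lineage-negative Kit-positive BM cells (HPs, hematopoietic progenitors) and CD45-negative Ter119-negative BM cells (stroma) were sorted from pooled mice, and single-cell RNA was sequenced together with antibody tags. There were 2 HP libraries at E16.5 and 1 library for each other stage and compartment, 9 in all, with 560 to 14084 cells and 13974733 to 194892476 UMIs (counted RNA molecules) each. Cell types were taken from the cluster codes that the authors deposited for each cell, and the codes were grouped into classes by lineage here.

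Levels were counted as CPM, UMIs of the gene per 1000000 UMIs after summing the cells of a cluster in a library. Each level is followed by its exact Poisson 95% interval where it carries a statement. These intervals cover counting error only, and with 1 library per stage outside the E16.5 HPs no difference between stages could be tested. The clusters were made from these same counts, so differences between clusters are descriptions. One UMI stands for 1 molecule caught at the 3' end whatever the length of the transcript, but capture differs between genes, so levels were compared between cells for the same gene and not between genes.

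Libraries shared cell barcodes. In all, 1102 barcodes occurred in more than 1 library, 330 of them in both E16.5 HP 1 and adult HP, 375 in E18.5 HP and adult HP and 225 in P0 and adult HP, while both E16.5 HP libraries had 1 in common. Cells with such a barcode made up 334 of 560 cells in E16.5 HP 1 and 788 of 5985 in adult HP. They had a median of 574.5 UMIs in adult HP against 6747 over all cells there, and 30898.5 against 23291.5 in E16.5 HP 1. The code with the most was adult MyP4, a myeloid progenitor code, with 361 of 701 cells, and E18.5 EryP/MegP and MyP2 had 82 of 205 and 79 of 226. Mast cell codes held large shares, with 194 of 201 cells of Mast4i and 98 of 120 of Mast4ii in adult HP, 209 of 274 of Mast4 in P0 HP, 40 of 41 of Mast/Bas in E18.5 HP and 57 of 106 of Mast1 in E16.5 HP 1. The main values that rest on these cells are given with and without them, or, where fewer than 20 other cells were left, with the UMIs in those cells.

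A member was counted as above the level in a compartment where a cluster of at least 20 cells reached 50 CPM with at least 20 UMIs. In HPs 32 members passed (11 ligands and 21 receptors), over 81 clusters, and in stroma 19 passed (8 ligands and 11 receptors), over 66 clusters. Among all genes with 20 UMIs in some cluster, 52.2% passed in HPs and 47.7% in stroma, and 47 and 39 members met that filter. Of the members, 23 passed in HPs and not in stroma, 10 in stroma and not in HPs, 9 in both and 25 in neither. Among 33 genes of the signalling pathways outside the name rule (Jak and Stat genes, Socs genes, Myd88 and others), 24 passed in HPs and 20 in stroma.

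Family counts were higher in HPs for some families, equal in others and lower in HPs for the IL-17 ligands. Of 7 ligands of the IL-1 family 5 passed in HPs and 2 in stroma, and of 9 IL-1 family receptors 5 and 2. Of 10 gamma-c and IL-13 receptors 7 passed in HPs and 3 in stroma. Of 5 ligands of the IL-6 and IL-12 family 2 passed in each compartment, of their 8 receptors 3 in HPs and 2 in stroma, and of 5 IL-17 receptors 2 in each. IL-17 family ligands had 0 of 4 in HPs and 2 in stroma, and all 3 IL-10 family ligands stayed below the level in both compartments. No difference between the compartments was tested. The 36 members named by level (ligands that reached 20 CPM and receptors that reached 100 CPM) had their highest cluster in HPs for 25 and in stroma for 11. Adult CARs (Cxcl12-abundant reticular cells), E18.5 Bas1 and E18.5 Mono1iii each led 4 of them.

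**Figure D1:**
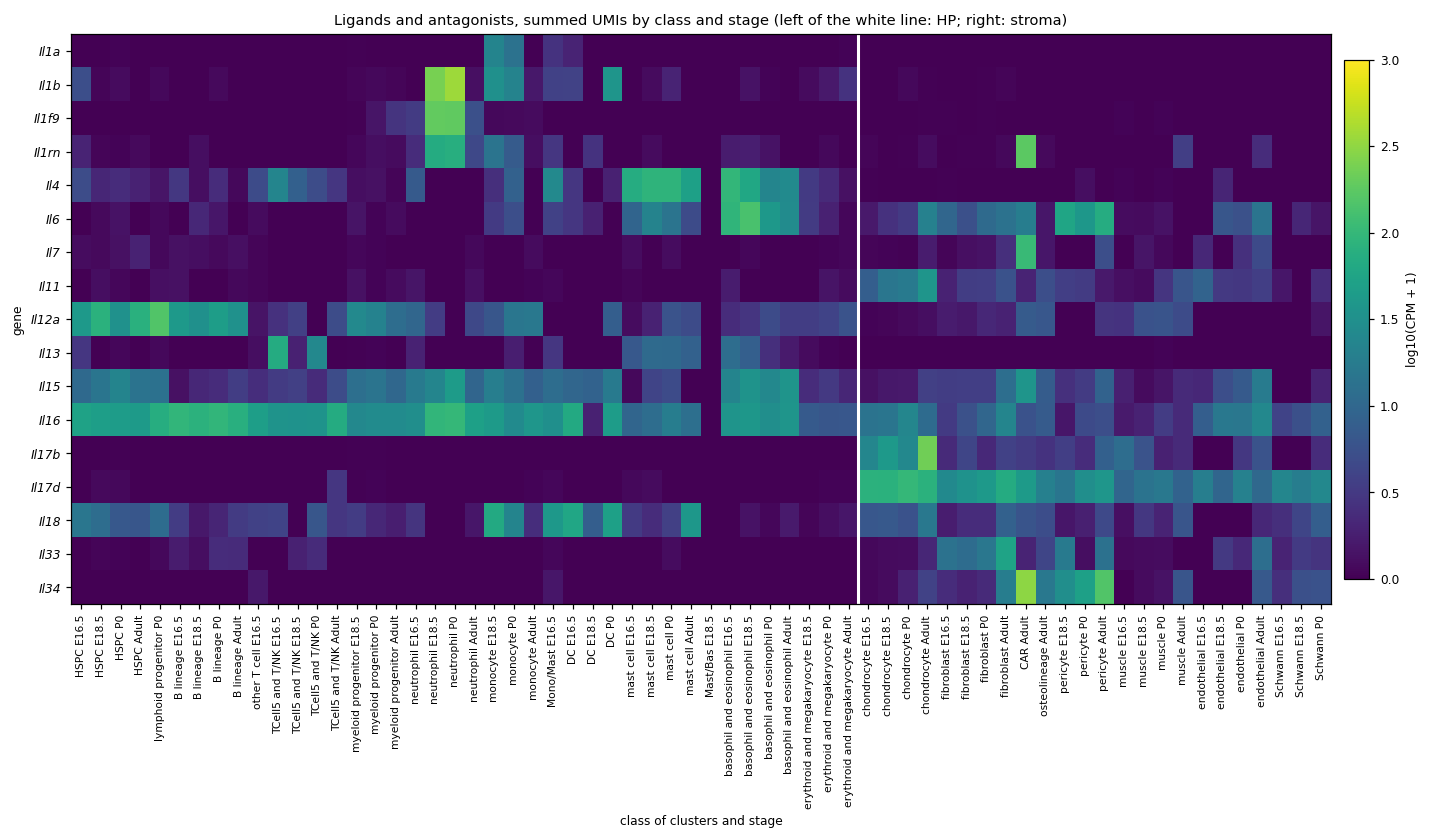
Levels of the 17 named ligands and antagonists as log10(CPM + 1) (colour), for classes of clusters grouped by lineage at each stage (columns; HPs left of the white line, stroma right). Il7, Il34 and Il33 are brightest in adult stroma and Il4 in mast cell, basophil and eosinophil columns. Il6 is bright in basophil and eosinophil columns and in pericyte columns.

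**Figure D2:**
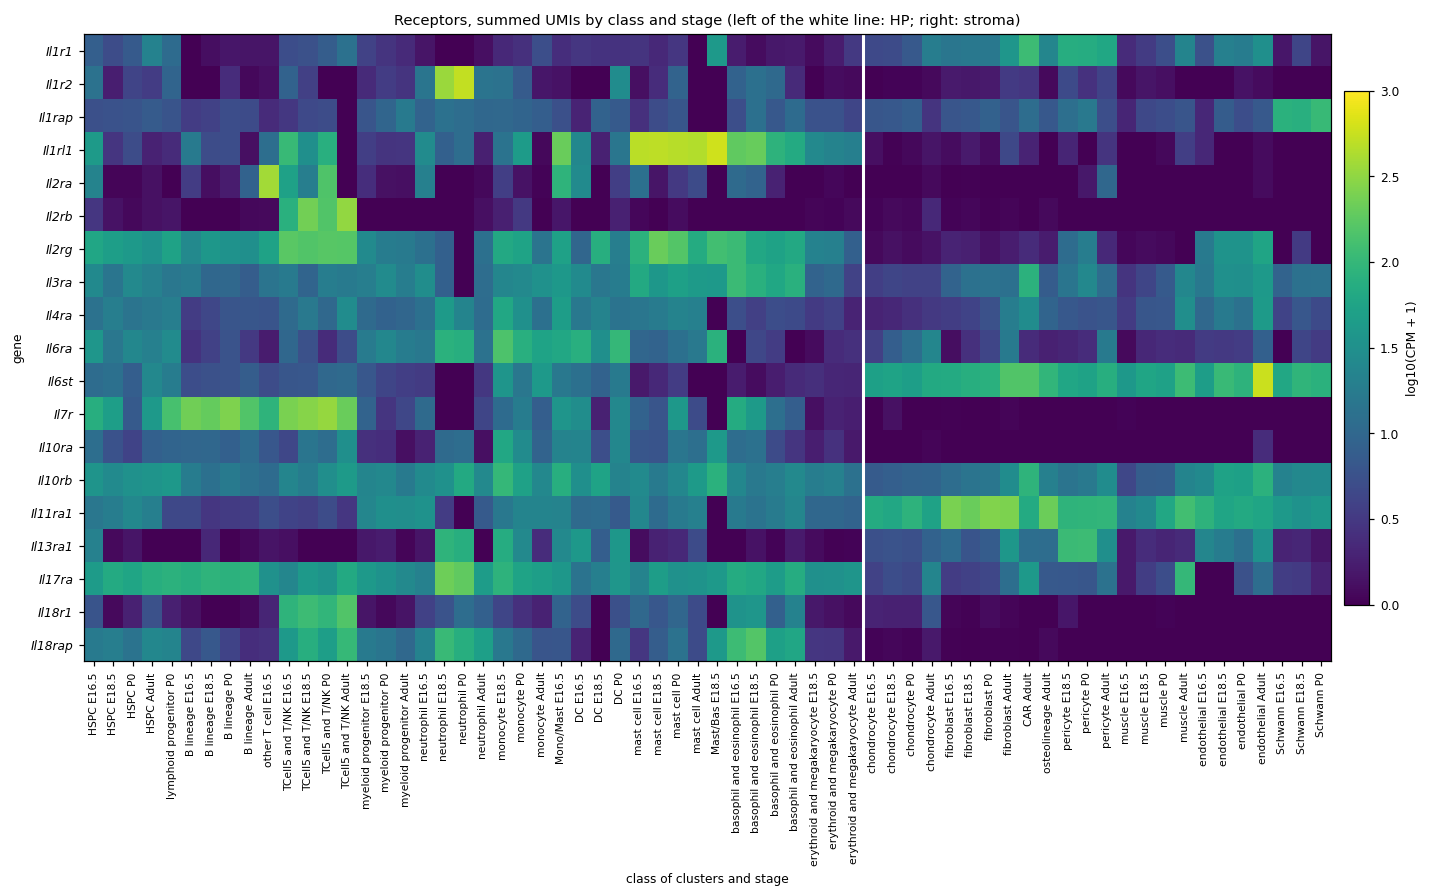
Levels of the 19 named receptors on the same scale and columns as the ligands. Il1rl1 is bright in the mast cell columns of every stage, Il2ra in the E16.5 T cell columns, and Il6st and Il11ra1 across the stromal columns.

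Il1rl1 was highest in mast cells, and Il4 and Il6 were highest in E18.5 Bas1, a basophil code. Il4 was also high in mast cells, while Il6 was at 5.73 to 10.5 CPM in the E16.5 mast cell clusters. The start regions of these genes and of Il13, which was led by TCell5 and came next in Bas1, are shown. GATA factors and AP-1 are known to act in mast cells and basophils. Each line holds the 250 bases before an annotated RefSeq start on GRCm38.p6, the assembly that mm10 is built on, written 5' to 3' on the strand of the gene. Capitals mark GATAA or TGANTCA on either strand. Il1rl1 is on the plus strand with windows at chr1:40429320-40429569 and chr1:40439379-40439628, Il4 on the minus strand at chr11:53618666-53618915, Il13 on the minus strand at chr11:53634703-53634952 and Il6 on the plus strand at chr5:30012864-30013113.
Il1rl1, upstream start: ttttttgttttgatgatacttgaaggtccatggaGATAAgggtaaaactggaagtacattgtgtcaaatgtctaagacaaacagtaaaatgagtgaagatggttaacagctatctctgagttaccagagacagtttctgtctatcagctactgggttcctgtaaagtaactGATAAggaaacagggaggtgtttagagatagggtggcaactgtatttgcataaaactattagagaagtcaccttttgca
Il1rl1, downstream start: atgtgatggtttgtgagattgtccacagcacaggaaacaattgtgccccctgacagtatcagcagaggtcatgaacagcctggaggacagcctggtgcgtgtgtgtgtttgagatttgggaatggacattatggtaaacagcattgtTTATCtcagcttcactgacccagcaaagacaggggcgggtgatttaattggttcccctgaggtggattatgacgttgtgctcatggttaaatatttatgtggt
Il4: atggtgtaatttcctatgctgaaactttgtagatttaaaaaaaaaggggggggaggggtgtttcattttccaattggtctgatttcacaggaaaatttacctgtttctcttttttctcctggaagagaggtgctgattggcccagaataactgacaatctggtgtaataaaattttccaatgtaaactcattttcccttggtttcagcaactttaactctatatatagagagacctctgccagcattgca
Il13: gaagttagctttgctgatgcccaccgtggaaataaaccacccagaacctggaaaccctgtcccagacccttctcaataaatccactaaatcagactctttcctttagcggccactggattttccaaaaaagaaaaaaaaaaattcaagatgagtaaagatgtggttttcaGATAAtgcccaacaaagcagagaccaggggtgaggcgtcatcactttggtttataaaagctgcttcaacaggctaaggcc
Il6: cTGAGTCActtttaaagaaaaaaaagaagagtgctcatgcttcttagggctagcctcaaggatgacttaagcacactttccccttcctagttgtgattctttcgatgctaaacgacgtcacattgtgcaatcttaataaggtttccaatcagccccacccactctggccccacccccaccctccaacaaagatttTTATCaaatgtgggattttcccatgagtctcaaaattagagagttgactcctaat

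GATAA was found 2 times in the upstream Il1rl1 window, at 216 and 79 bases before the start, and 1 time in the downstream window at 103 bases. It occurred 1 time for Il13 at 80 bases and 1 time for Il6 at 55 bases, and in the Il4 window shown neither motif was found. TGANTCA was found 1 time, for Il6. Over all RefSeq start windows of this length, 7418 of 32851 (22.6%) held GATAA and 2217 (6.75%) held TGANTCA, beside 18 (27.7%) and 10 (15.4%) of the 65 windows of 51 members. A match in a window is a match of letters, and binding was not measured here. Il4 (chr11:53612460-53618665) and Il13 (chr11:53631323-53634702) are neighbours with 12657 bases between them, and Il1rl1 (chr1:40404864-40465418) is followed after 133 bases by Il18r1 (chr1:40465552-40500854) and after a further 14507 bases by Il18rap (chr1:40515362-40551707).

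Il1rl1, which encodes the IL-33 receptor ST2, was high in mast cell clusters of every stage. In the Mast1 cluster it stood at 852 CPM (816 to 890) in E16.5 HP 1 and 544 CPM (532 to 557) in E16.5 HP 2. It reached 498 CPM (477 to 520) in E18.5 Mast3 and 482 CPM (460 to 504) in P0 Mast3. Summed over the mast cell class, the E16.5, E18.5, P0 and adult levels were 490, 498, 474 and 456 CPM (378 to 545 for the adult), and no pair of neighbouring stages passed 4-fold. The adult value rested on 120 UMIs, nearly all from cells with shared barcodes. Without those cells the adult class stood at 103 CPM, from the few UMIs left.

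The smaller mast codes depended on the shared barcodes in the same way. P0 Mast4 had 321 CPM of Il1rl1 from 61 UMIs, and 109 CPM from 6 UMIs in the 65 cells left without them. Adult Mast4i had 593 CPM from 89 UMIs, with 194 of its 201 cells sharing a barcode. Adult Mast4ii had 274 CPM from 31 UMIs, and 0 UMIs in its 22 remaining cells. E16.5 HP 1 Mast1, in contrast, stood at 955 CPM without them. In E18.5 Mast3 and P0 Mast3 the levels without shared barcodes were 509 and 480 CPM.

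Il1rl1 was also counted in other codes. E18.5 Bas1 had 558 CPM (525 to 593), above E18.5 Mast3, and led that library among clusters with at least 20 Il1rl1 UMIs. It had 4 of 4 basophil markers detected at a sum of 3398 CPM and 8 of 8 mast cell markers at 3566 CPM. In Mast1 of E16.5 HP 2 these sums were 1650 and 89377 CPM. The part of mast cell transcripts in the Bas1 level was not tested. In E16.5 HP 2, 98.5% of Mast1 cells carried an Il1rl1 UMI (median 13591 UMIs per cell), beside 6.31% of TCell1 cells (median 18052), and after thinning each cell to 1000 UMIs the shares were 44.0% and 0.557%. Over whole HP libraries the level was 462 and 170 CPM in the E16.5 pair and 63.2, 34.5 and 9.68 CPM in the later libraries in order of stage, an order in which the share of mast cells in each library also enters.

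Il4, a cytokine of mast cells, basophils and T helper cells, was highest in E18.5 Bas1 at 162 CPM (144 to 181). Mast1 had 116 CPM in E16.5 HP 1 (115 without shared barcodes) and 88.2 in E16.5 HP 2, and Mast3 had 88.3 CPM at E18.5 and 90.8 at P0. All 4 lay below Bas1, and the intervals of the last 3 overlapped each other and those of E16.5 HP 2 Eos/Bas1 (82.9 CPM) and P0 Eos/Bas3 (76.6 CPM). An Il4 UMI was present in 60.2% of Bas1 cells (median 6566 UMIs) and in 2.32% of E18.5 HSPC2 cells (median 25054), or 16.1% and 0.515% after thinning to 1000 UMIs. Adult Mast4i had 80.0 CPM from 12 UMIs, 1 of them in a cell without a shared barcode.

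Il6 is a cytokine of acute inflammation that also acts on progenitors. Among HPs it was highest in basophil and eosinophil codes, and among stroma in perivascular and fibroblast clusters. It was at 316 CPM (291 to 343) in E18.5 Bas1 and 181 CPM (151 to 216) in P0 Eos/Bas3. E18.5 Eos/Bas2 and E16.5 HP 2 Eos/Bas1 had 76.7 and 76.4 CPM, P0 Bas2 had 36.4 and adult Eos/Bas4 had 27.1. Bas1 held 50.2% of all Il6 UMIs of its library with 2.87% of the library's UMIs, and adult Eos/Bas4 held 89.6% with 2.68%. In stroma the leading clusters were E16.5 F4 at 70.7 CPM, adult P4 at 70.3, E18.5 P2 at 56.8 and P0 P2 at 38.2. Leading by level was not holding most UMIs, since P4 held 8.37% of the Il6 UMIs of adult stroma and P0 P2 13.5% of those of P0 stroma. Adult chondrocyte codes held 601 of the 1398 Il6 UMIs of adult stroma, at 19.7 CPM. P2 and P4 were grouped as pericytes here, and F4, a fibroblast code, also had all 6 pericyte and smooth muscle markers, summing to 2451 CPM.

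Receptors of the same cells differed by cluster. Il3ra, the IL-3 receptor alpha chain, was at 147 CPM (130 to 166) in E18.5 Bas1, 109 in P0 Eos/Bas3, 96.9 in E16.5 HP 2 Eos/Bas1 and 79.3 in adult Eos/Bas4. Il18rap, the second chain of the IL-18 receptor, was at 425 CPM (396 to 456) in Bas1 and 217 in Eos/Bas3. Its partner Il18r1 was at 104 CPM in Bas1. Il5ra, the IL-5 receptor alpha chain of eosinophils, was highest in P0 EosP at 64.1 CPM (53.1 to 76.7). Il15, a factor for NK cells, was also highest here, at 61.9 CPM in Eos/Bas3 and 55.3 in Bas1.

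Il13, a type 2 cytokine, was led not by these cells but by TCell5 of E16.5 HP 2 at 74.8 CPM (64.9 to 85.9), followed by Bas1 at 24.7 and P0 TCell5 at 24.2. TCell5 held 47.6% of the Il13 UMIs of its library with 2.80% of all UMIs. An Il13 UMI was found in 28.5% of its cells (median 13504 UMIs) and in 0 of 181 Bcell1 cells (median 10854), which allows up to 2.02% of cells with a UMI and sets no limit on cells that express the gene. The transcription factor Gata3, known for type 2 lymphocytes, was at 277 CPM in TCell5, and Rora, known in innate lymphoid cells, at 326. The T cell list summed to 3042 CPM there with all 8 markers detected. The innate lymphoid and NK list summed to 2427 CPM and the mast cell list to 2890. The part of these lists in the Il13 level was not tested.

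**Figure D3:**
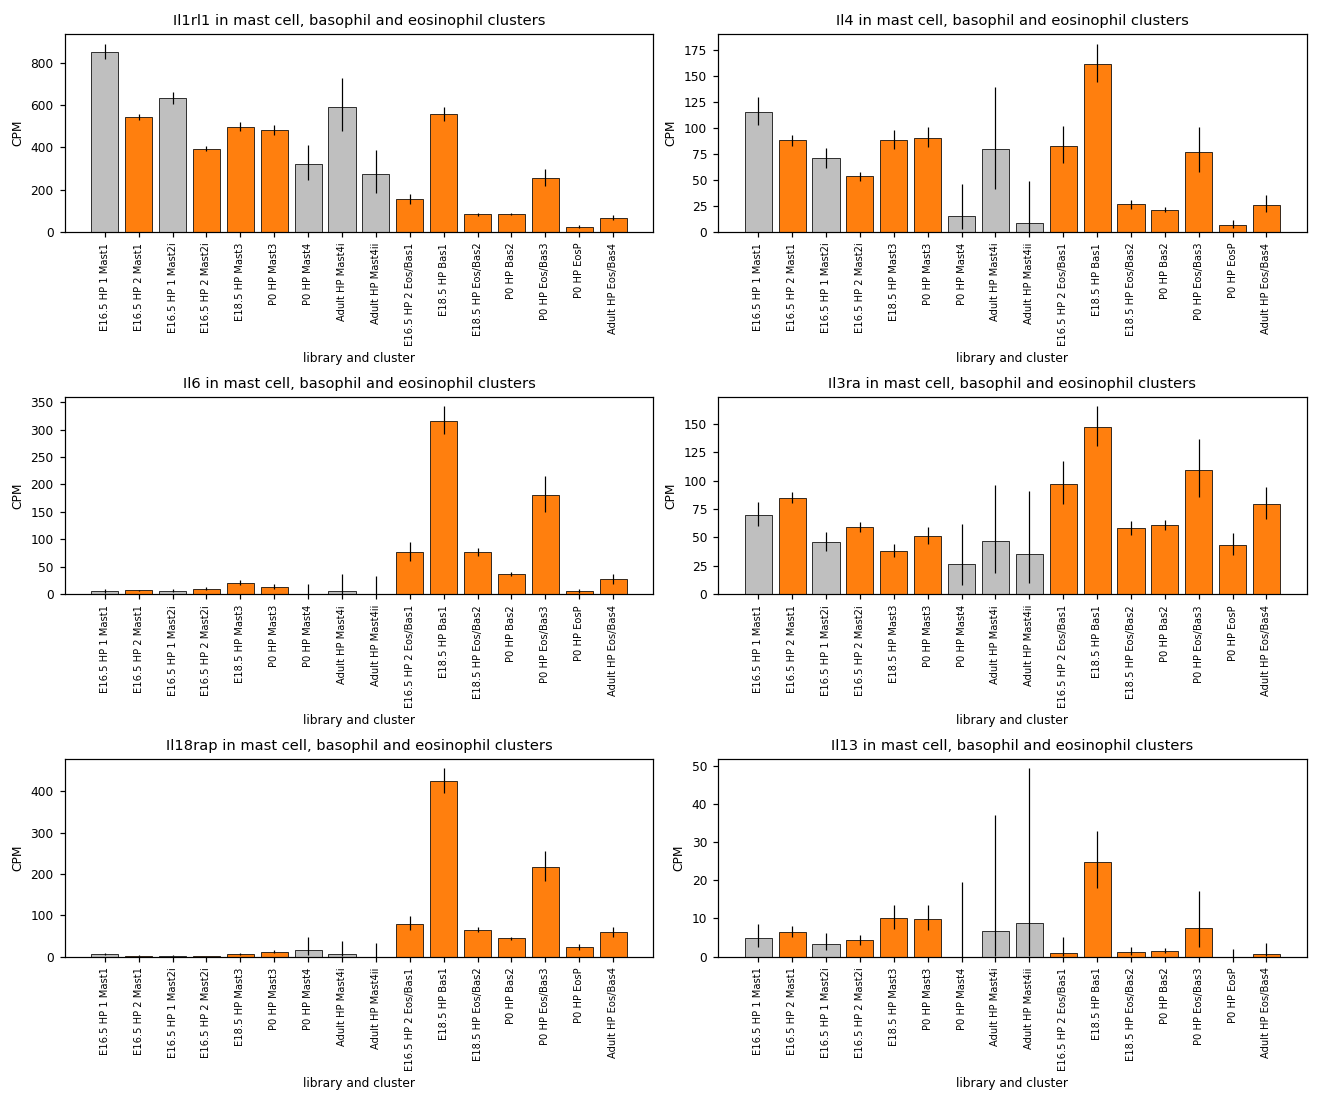
CPM of 6 genes in mast cell, basophil and eosinophil clusters (bars; error bars are exact Poisson 95% intervals), with grey bars where over 50% of the cells had a barcode found in another library. Il1rl1 stands between 394 and 544 CPM in the orange Mast1, Mast2i and Mast3 bars from E16.5 HP 2 to P0, and E18.5 Bas1 has the tallest bars of Il4, Il6, Il3ra, Il18rap and Il13.

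Il7r, the IL-7 receptor alpha chain of lymphoid progenitors, had its highest level in UD1 of E16.5 HP 2, a code that the authors left undefined, with 76 cells. UD1 stood at 1151 CPM (1077 to 1230, 890 UMIs), or 1727 as a mean of per-cell CPM, above every other cluster of at least 20 cells. It held 12.7% of the library's Il7r UMIs with 0.806% of all UMIs. An Il7r UMI was found in 98.7% of UD1 cells (median 6136 UMIs), against 11.2% of Mast1 cells (median 13591), and thinning to 1000 UMIs left 72.4% of UD1 cells and 13 of 869 Mast1 cells.

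UD1 led further receptors. Il2rg, the gamma-c chain, was at 219 CPM (187 to 254) and Il18r1 at 181 CPM (152 to 214), each the highest of any such cluster, with intervals that overlapped those of the next (203 CPM in E18.5 Mast3 and 154 in adult T/NK). Il1r1, the receptor for IL-1, was at 78.9 CPM, Il27ra at 51.7, Il17re at 50.5 and Il23r, which pairs with Il12rb1 for IL-23, at 28.5 from 22 of its 26 UMIs in the library. All 8 T cell markers were detected in UD1, at a sum of 1175 CPM. Cd3e, a chain of the T cell receptor complex, was at 10.3 CPM, so most of this sum came from the other markers. Of the 8 innate lymphoid and NK markers 7 were detected, at a sum of 1142 CPM. Rora, a transcription factor known in innate lymphoid cells, made up 217 CPM of it. The mast cell list summed to 25261 CPM with all 8 detected, among them Cpa3 at 7154 CPM. The dendritic cell list summed to 1719 CPM with 4 of its 7 markers detected. No name is given to UD1 here, and the part of the mast cell transcripts in these levels was not tested.

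The next levels of Il7r were those of lymphoid codes. TCell5 had 332 CPM (292 to 376) at P0, 286 at E18.5 and 240 in E16.5 HP 2. B lineage codes had 317 CPM in E16.5 HP 1 Bcell1 (28 cells, with 47 of its 191 UMIs in the 12 cells without a shared barcode), 194 in E16.5 HP 2 Bcell1, 260 in P0 Bcell1, 289 in P0 BCell2 and 253 in adult Bcell4. Summed over B lineage codes, Il7r levels in order of stage were 220, 196, 261 and, in adults, 152 CPM, so that no neighbouring stages differed by 4-fold. Codes of other lineages also passed 50 CPM, with 143 CPM in E18.5 Bas1, 137 in P0 Eos/Bas3, and 75.5 in HSPC1, 64.0 in Mono/Mast and 63.3 in Eos/Bas1 of E16.5 HP 2, where TCell2 had 69.1 and TCell6 79.2.

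Il2ra, the IL-2 receptor alpha chain that marks early thymocyte stages, had most of its UMIs in 1 library. E16.5 HP 2 held 19283 of its UMIs (201 CPM), E16.5 HP 1 held 27 (1.93 CPM), and E18.5, P0 and adult HPs held 131, 158 and 55. The 4 leading clusters were TCell1 at 462 CPM (450 to 475), TCell4 at 437, TCell3 at 425 and TCell2 at 354, all in E16.5 HP 2, which also had T cell codes that were below 20 cells or absent in E16.5 HP 1. TCell6 and TCell5 there were lower, at 82.9 and 49.2 CPM, and the highest cluster of a later stage was P0 TCell5 at 148 CPM. An Il2ra UMI was present in 94.2% of TCell1 cells (median 18052 UMIs) and 7.48% of Mast1 cells (median 13591), or 32.7% and 13 of 869 cells after thinning.

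Il2ra was also counted in codes of other lineages of E16.5 HP 2, at 178 CPM in Mono/Mast, 33.2 in DC1, 27.8 in Mast1, 26.5 in HSPC1 and 20.2 in Neu1. In E16.5 HP 1 no Mono/Mast cell of 161 carried an Il2ra UMI, while 72 of 142 did in E16.5 HP 2. The count of 0 allows up to 2.27% of cells with a UMI, which does not limit the share of cells that express the gene. T cell markers moved the same way. Their 8 genes summed to 3959 CPM in Mono/Mast of E16.5 HP 2, with Cd3e at 214, Ptcra at 202 and Rag1 at 114, and to 3.11 CPM in E16.5 HP 1, where Cd3e and Rag1 were at 0. Their part in the Il2ra level of these codes was not tested.

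Il2rb, the chain shared by the IL-2 and IL-15 receptors, was held by TCell5 and T/NK codes. It was at 322 CPM (274 to 376) in adult T/NK, 227 in E18.5 TCell5, 152 in P0 TCell5 and 80.8 in E16.5 HP 2 TCell5, and these clusters held 95.3%, 96.2%, 83.1% and 81.9% of its UMIs in their libraries. The intervals of neighbours in this order did not overlap. Il18r1 followed in the same codes with 154, 113, 94.2 and 85.6 CPM, where the intervals of neighbours overlapped. Il2rg was broader, at 203 CPM in E18.5 Mast3, 164 in P0 Mast3 and 154 to 168 in TCell5 and T/NK codes, and reached 76.0 CPM in adult SECs (sinusoidal endothelial cells).

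**Figure D4:**
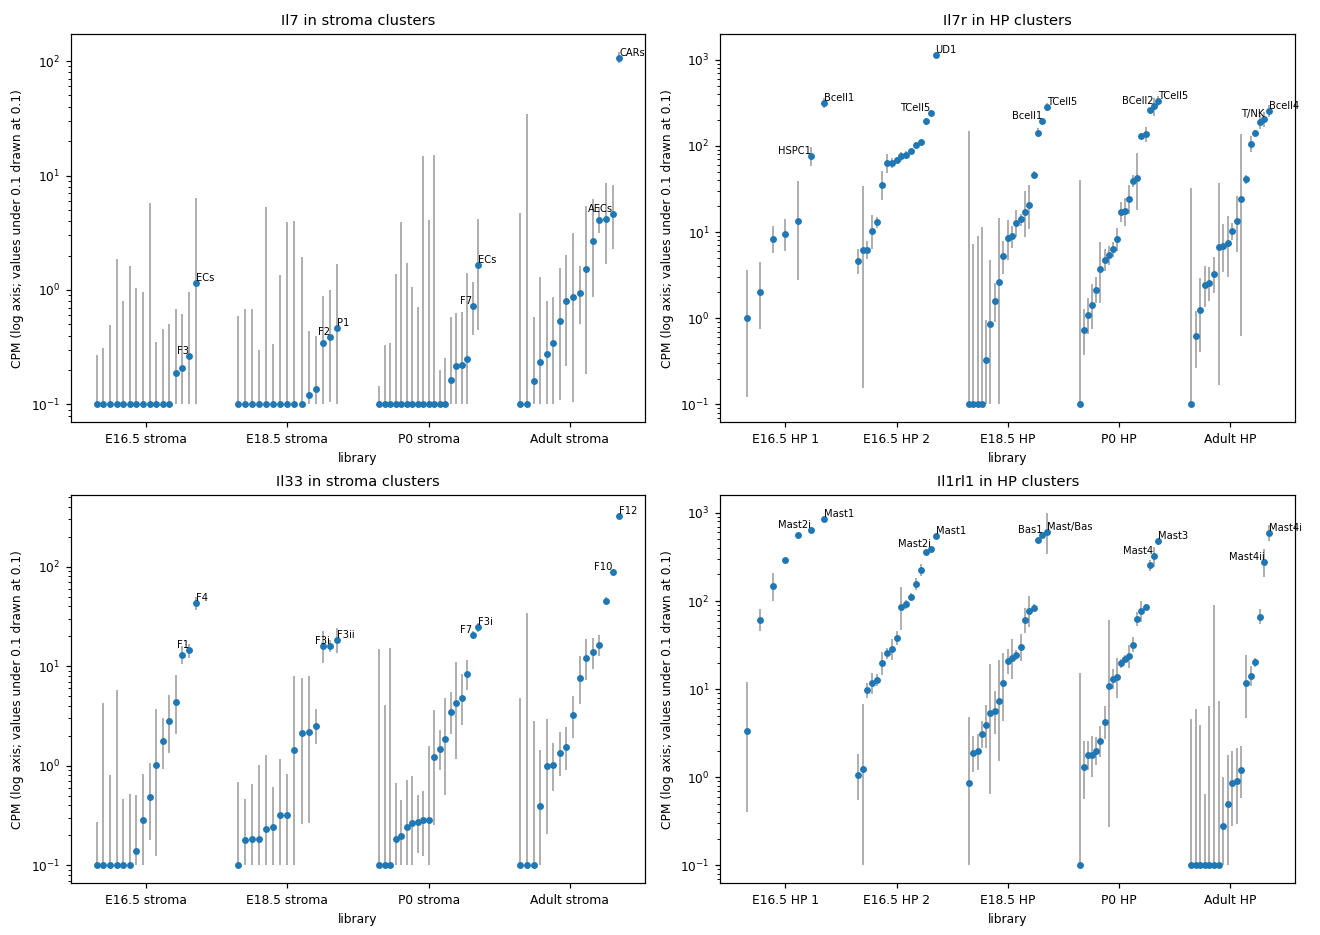
Il7, Il7r, Il33 and Il1rl1 in each cluster of at least 20 cells (points, CPM on a log axis; bars are exact Poisson 95% intervals; values under 0.1 are drawn at 0.1; the 2 highest clusters of each library are labelled), ligands in stromal and receptors in HP libraries. Adult CARs stand alone for Il7 at 107 CPM, and UD1 tops Il7r at 1151 CPM.

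Il12a, a subunit of IL-12 and IL-35, had its highest levels in lymphoid progenitor, B lineage and HSPC codes. P0 LymP had 150 CPM (141 to 160), P0 BCell2 124, E18.5 HSPC2 82.2, adult HSPC5 79.6 and adult Pre/Pro-B2 65.2. LymP held 31.1% of the P0 library's Il12a UMIs with 4.77% of all UMIs, and an Il12a UMI was present in 81.2% of its cells (median 14392 UMIs) and in 3.66% of EryP1 cells (median 37938). In HSPC codes the levels by stage were 40.6, 82.2, 32.0 and, in adults, 79.6 CPM, with no order by age. Il12b, the partner of Il12a in IL-12, was not analysed here. Il16, a chemoattractant made as a precursor by lymphocytes, was highest in P0 BCell2 at 276 CPM (214 to 351) and adult Pre/Pro-B2 at 196. Il21r, the IL-21 receptor, peaked at 62.4 CPM in E18.5 HSPC2.

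Neutrophil codes of the perinatal stages held IL-1 family genes. Il1b, the inflammatory ligand, was at 358 CPM (246 to 503) in P0 Neu2 from 33 UMIs in 28 cells (629 as a mean of per-cell CPM) and at 238 CPM (193 to 291) in E18.5 Neu2, with intervals that overlapped. Il1r2, the decoy receptor for IL-1, was at 531 and 349 CPM in these codes and at 162 in P0 Eos/Bas3. Il1f9, which encodes IL-36 gamma, was at 192 CPM in E18.5 Neu2, which held 97.5% of its UMIs in the library, and 184 in P0 Neu2. The same 3 genes were low in Neu1 and Neu3: Il1b had 0 UMIs in E16.5 neutrophils and 2 in adult Neu3, Il1r2 was at 13.5 and 13.4 CPM, and Il1f9 at 4.47 CPM in Neu3.

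Monocyte and macrophage codes differed among themselves. E18.5 Mono1iii (61 cells) led Il17ra, the common IL-17 receptor chain, at 446 CPM (381 to 518), Il6ra, the IL-6 receptor alpha chain, at 292, Il13ra1 at 207 and Il10ra at 133. E18.5 Mono2, where all 6 macrophage markers summed to 16928 CPM, led Il1a at 171 CPM (142 to 204), with 93.0% of the library's Il1a UMIs, and Il4ra at 111, and had Il10rb at 112, the same as adult AECs. P0 Mono2 had 35.3 CPM of Il1a and 95.5% of its UMIs in that library. Il18, an IL-1 family ligand of macrophages, was at 86.5 CPM in E18.5 Mono1i and 59.0 in E16.5 HP 2 DC1. Over monocyte codes Il6ra levels were 146 CPM (E18.5), 77.6 CPM (P0) and 54.4 CPM (adult).

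Adult CARs, which had all 5 CAR markers at a sum of 24716 CPM, were the leading stromal source of 3 ligands and an antagonist. Il7 was at 107 CPM (95.9 to 120) in CARs and at 4.57 CPM in the next adult code, AECs (arterial endothelial cells), with P4 at 4.20 and F8 at 4.12, whose intervals overlapped. CARs held 322 of 439 Il7 UMIs (73.3%) of adult stroma with 3.27% of all UMIs. An Il7 UMI was found in 46.8% of CARs (median 7185 UMIs) and in 0.696% of C9 chondrocytes (median 19966), or 11.1% and 0 of 573 after thinning. In fetal and newborn stroma the whole libraries held 10, 15 and 32 Il7 UMIs, or 0.0855, 0.133 and 0.164 CPM, against 4.78 CPM in the adult. The stromal libraries before the adult had no CAR code.

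Il34, a ligand of the receptor of M-CSF, was at 309 CPM (290 to 330) in CARs, 153 in adult P4, 49.7 in P0 P2 and 45.9 in adult F11. Over libraries it was at 0.513, 0.898, 1.89 and 23.9 CPM from E16.5 to adult stroma. Il1rn, the antagonist of the IL-1 receptor, was at 173 CPM (158 to 188) in CARs, which held 95.6% of its adult stromal UMIs, and at most 68.8 to 75.9 CPM in HPs, in Neu2. CARs also led Il1r1, the receptor that Il1rn blocks, at 112 CPM, and had Il15 at 35.3 and Il3ra at 82.7.

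Il33, the ligand of ST2, was led by fibroblast codes in these libraries. The paper describes adult Pdgfra-positive Sca-1-positive (PaS) MSCs, but no adult code carries that name. The PaS MSC and fibroblast list summed to 69188 CPM in adult F12 and 57987 in F10, and the 2 cell types were not told apart. Adult F12 had 321 CPM (298 to 345), F10 88.7 and F8 45.6, and before the adult the highest clusters were E16.5 F4 at 42.7 and P0 F3i at 24.6. An Il33 UMI was found in 70.6% of F12 cells (median 13416 UMIs) and 2.09% of C9 cells (median 19966). As a class, fibroblast codes had 12.7, 10.6 and 14.6 CPM before the adult and 53.5 CPM in it. This was 3.67-fold from P0 to the adult, short of 4-fold.

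Il6st, the gp130 chain, was highest in adult SECs at 926 CPM (882 to 971), followed by AECs at 313, F8 at 250 and CARs at 153. Il6st was broad: a UMI was present in 84.0% of SECs (median 7118 UMIs) and in 75.1% of the deeper C9 cells (median 19966), and after thinning in 52.6% and 7.85%. Endothelial levels by stage were 46.0, 106, 86.0 and, in adults, 579 CPM. SECs also held 127 of 136 adult stromal UMIs of Il13ra2, a decoy receptor for IL-13, at 68.5 CPM (57.1 to 81.5).

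Il11ra1, the IL-11 receptor alpha chain, was the most widespread member in stroma, at or above 50 CPM in 53 clusters. Its highest clusters were adult F11 at 431 CPM (412 to 451), F8 at 393, P0 F5 at 345, F12 at 311 and E16.5 F2 at 286. Summed over the fibroblast codes of a stage, it stayed between 204 and 270 CPM at all 4 stages. Il11ra1 has a close copy, Il11ra2, with which 11.0% of its transcript words of 91 bases are shared, so reads of the copies may not be told apart. Il1rap, the chain shared by IL-1 and IL-33 receptors, was led by Schwann cell codes at 103 CPM at P0, 80.8 at E16.5 and 76.7 at E18.5.

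Chondrocyte codes held the IL-17 family ligands and Il11. Il17b was at 320 CPM (310 to 329) in adult C10, 217 in adult C11 and 161 in E18.5 C5, and C5 held 89.6% of its UMIs in P0 stroma with 14.4% of all UMIs. An Il17b UMI was found in 86.9% of C10 cells (median 36462 UMIs) and in 1.16% of F8 cells (median 11706). Il17d was broader, at 128 CPM in P0 C2i, 127 in adult F9 and 126 in adult C9, and it reached 50 CPM in 26 clusters. Il11, a gp130 ligand, was at 50.3 CPM in C10, 32.2 in C11 and 30.3 in E18.5 C7.

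Antibody tags gave a second readout for 2 receptors in E16.5 HP 2. The tag named IL33R was counted 9077 times there and 0 times in the other 8 libraries. Cells with at least 4 tags (a centered log-ratio above 1) numbered 826 of 4752 (17.4%) and had 399 CPM (390 to 409) of Il1rl1 against 120 CPM in the rest, a ratio of 3.33. Most of this was between cell types. Mean tags per cell were 4.03 in Mast2i, 3.04 in Mast1, 2.88 in Mast2ii and 2.75 in Mono/Mast, and 0.75 to 1.44 elsewhere. Within Mast1 the positive and negative cells had 554 and 539 CPM, a ratio of 1.03 with intervals that overlapped, and within Mast2i and Mast2ii the ratios were 1.28 and 1.17. Within Mono/Mast and TCell5 they were larger, at 2.87 and 3.28, and positive Mono/Mast cells were deeper, with a median of 32754 UMIs against 23168.

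CD127, the protein of Il7r, was counted with 1450 tags. The 44 cells with at least 3 tags had 217 CPM (187 to 250) of Il7r against 71.9 CPM (70.2 to 73.6) in the rest, a ratio of 3.01. UD1, the cluster with the highest Il7r level, held 8 of these cells. No cluster held 20 of them, so no ratio within a cluster is given. The part of differences between cell types in the ratio was not tested. The mean tag count was highest in UD1 at 0.961, with Mono/Mast at 0.585 and Bcell1 at 0.464, so UD1 led both the transcript and the tag. The mean was under 1 tag per cell in every cluster.

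**Figure D5:**
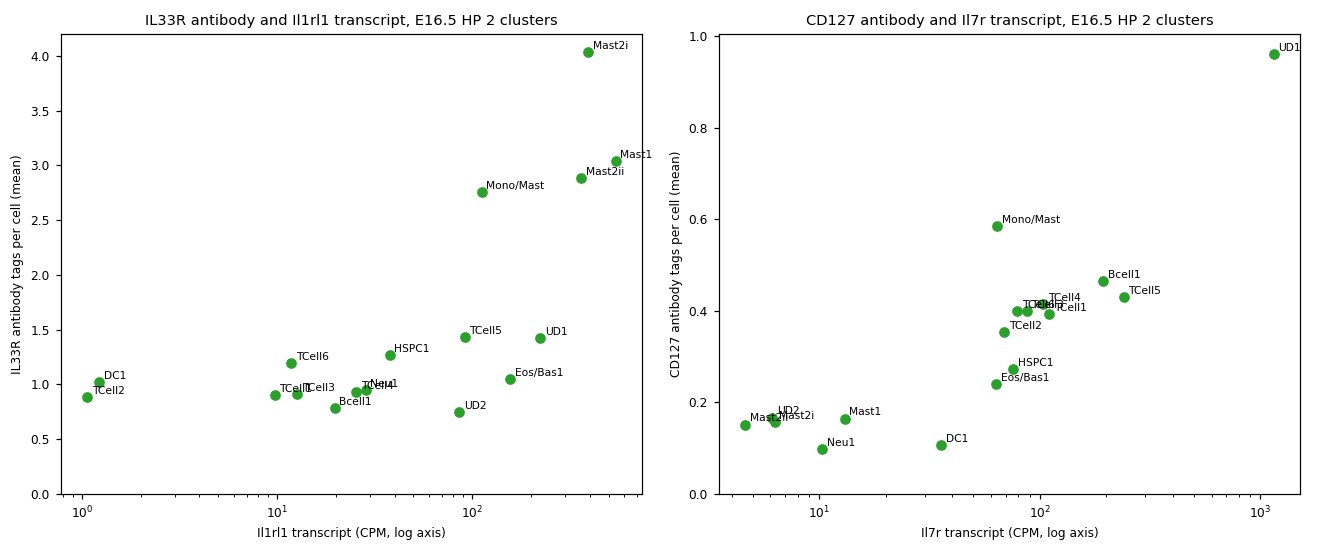
Mean antibody tags per cell against the transcript of the same receptor (CPM, log axis) for each cluster of E16.5 HP 2 (points, labelled by code), for IL33R with Il1rl1 (left) and CD127 with Il7r (right). Mast codes stand to the upper right for IL33R, and UD1 stands farthest to the upper right for CD127.

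Both E16.5 HP libraries were set side by side as the 1 case of repeated sampling. In the 7 clusters with at least 20 cells in both libraries, 15.6% to 39.6% of the genes tested had intervals that did not overlap, with Mono/Mast at the top, so an interval that excludes another library's value was common within a stage. In Mono/Mast 15 of 26 members tested did not overlap, and Il2ra, Il7r (8.28 against 64.0 CPM in E16.5 HP 2) and Il17rb (0.518 against 11.9) passed 4-fold, beside 4.15% of all genes there. Without shared barcodes Il7r was at 17.2 CPM in E16.5 HP 1, and Il17rb rested there on 2 UMIs. Il1rl1 was higher in E16.5 HP 1 in all 3 mast clusters (852 against 544, 633 against 394 and 565 against 363 CPM). Of its UMIs in Mast2i and Mast2ii of E16.5 HP 1, 216 of 1860 and 109 of 1123 were in cells without a shared barcode, 17 and 14 cells. In Mono/Mast of E16.5 HP 1 it stood at 290 CPM, and at 79.2 without shared barcodes.

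Stages were compared within classes that group cluster codes by lineage, so that P0 TCell5 was set against adult T/NK, and B lineage holds Bcell and Pre/Pro-B codes. Of the P codes, P1i, P-2, P1 and P3 were set as muscle here and P2 and P4 as pericytes. A member passed the fold where 1 stage was at least 4-fold above the other with at least 20 UMIs in the higher group and intervals that did not overlap, and a group under 3 UMIs was set at 3 to call it. A ratio followed by an interval had 1 to 3 UMIs in the lower group. Folds over more UMIs carry no interval, and some rest on 4 UMIs there. Between E16.5 and P0, 42 members met the minimum of UMIs in at least 1 of 7 HP classes. Of 165 member values 21 passed the fold (12.7%), 9 higher and 12 lower at P0, beside 3.56% of all gene values and 3.01% of pathway gene values. Without E16.5 HP 1 there were 19 calls among 163 values tested, and without E16.5 HP 2 there were 6 among 76. Of the 15 that went missing without E16.5 HP 2, 2 were tested and lost and 13 could not be tested, since E16.5 HP 1 alone had 9 DC, 13 TCell5, 18 basophil and eosinophil and 2 neutrophil cells, all under the minimum of 20, and too few Il2ra UMIs in HSPC and mast cell codes. Over HPs and stroma together the split of higher against lower was 16 to 13, and 10 to 4 without E16.5 HP 2, where only the HSPC, mast cell and B lineage classes of the HPs remained. In 5 stromal classes 8 of 110 passed (7.27%), 7 of them higher at P0, beside 1.97% of all genes and 1.80% of pathway genes. From P0 to the adult, 29 of 225 passed in 9 HP classes (12.9%), 8 higher and 21 lower, beside 3.78% and 7.21%, and 33 of 136 in 5 stromal classes (24.3%), 27 higher and 6 lower, beside 8.92% and 12.5%. These values share cells and genes between classes, and nothing was tested.

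In HSPC codes 5 of 38 members tested passed the fold from E16.5 to P0, all lower at P0 and all receptors, and 0 were higher. Il7r was at 75.5 CPM (67.3 to 84.5) at E16.5 and 6.16 (5.32 to 7.09) at P0, 12.3-fold lower, with 75.5 CPM in each E16.5 library on its own, and 40.9 CPM in the adult, 6.65-fold above P0. Of the 63 Il7r UMIs in E16.5 HP 1, 9 were in cells without a shared barcode. E18.5 HSPC2 was between, at 46.6 CPM. Il1rl1 was 10.7-fold lower at P0 (42.6 against 3.99 CPM) and a further 4.35-fold lower in the adult, Il13ra1 was 41.4-fold lower (85.2-fold without E16.5 HP 2, with 40.8 CPM in HSPC1 of E16.5 HP 1 and 14.4 in that of E16.5 HP 2), and Il18r1 was 5.75-fold lower at P0 and 5.33-fold higher again in the adult. Il2ra was at 21.0 CPM at E16.5 and 0.0957 at P0, a ratio of 220 (72.7 to 1088) that rests on 3 UMIs at P0 and on E16.5 HP 2, since HSPC1 of E16.5 HP 1 had 0 Il2ra UMIs. The call on Il18r1 at P0 rested on 20 UMIs at E16.5 and was lost without shared barcodes and without either E16.5 library, where fewer than 20 UMIs remained and the fold was 6.08, 5.80 and 5.57. In this class the 38 members tested had a median log2 ratio of -0.58, beside -0.03 for all genes, and 4.50% of all genes passed the fold.

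Other lineages' markers moved with these values. In HSPC codes the T cell list summed to 1220 CPM at E16.5 and 53.0 at P0, the mast cell list to 4464 and 219, and the 7-gene dendritic cell list to 6066 and 165. The HSPC list itself went the other way, at 326 CPM at E16.5 and 651 at P0, with 786 at E18.5 and 593 in the adult. The dendritic cell list was at 12788 CPM in HSPC1 of E16.5 HP 1 and 4316 in that of E16.5 HP 2, the same order as Il13ra1. The T cell list was at 1488 CPM in HSPC1 of E16.5 HP 2 and 193 in that of E16.5 HP 1. The part of these lists in the lower levels was not tested. Without E16.5 HP 2 the calls on Il1rl1, Il7r and Il13ra1 held. They then rested on 33 HSPC1 cells of E16.5 HP 1, 20 of them with a shared barcode. Fewer than 20 other cells were left there, so E16.5 HP 1 alone could not be compared without shared barcodes. With both libraries and without shared barcodes the folds were 9.20, 12.1 and 40.4, with most E16.5 cells then from E16.5 HP 2.

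Mast cells, in contrast, had Il7r 5.06-fold higher at P0 (7.74 against 39.2 CPM). Il1r2 was 24.7-fold (13 against 33 UMIs), Il12a 19.5-fold (10 against 20 UMIs) and Il18rap 6.37-fold higher and Il2ra 5.40-fold lower, where 4.55% of all genes passed. Without E16.5 HP 2 the fold was 9.31 for Il7r and 3.98 for Il18rap, whose call was lost, and Il12a and Il1r2 had 1 and 0 UMIs left at E16.5, so no fold is given for them. The mast cell list itself summed to 68370 CPM in these codes at E16.5 and 28320 at P0. Il2ra rested on that library, since Mast1, Mast2i and Mast2ii of E16.5 HP 1 held 0, 1 and 0 UMIs. The T cell list summed to 257 CPM in mast cells at E16.5 and 38.0 at P0, and to 553 CPM in Mast1 of E16.5 HP 2 against 15.6 in that of E16.5 HP 1, and its part in the Il2ra level was not tested. From P0 to the adult none of 22 members tested in mast cells passed, beside 1.29% of all genes. Without shared barcodes Il1rl1 was at 103 CPM in adult mast cells and 474 CPM in those of P0. The adult value then came from the few Mast4i cells left, since 194 of 201 shared a barcode and Mast4ii held no UMI. No fold is given for it. In basophil and eosinophil codes Il4 (95.2 against 22.3 CPM, 4.27-fold), Il7r (6.03-fold), Il9r (7.93-fold) and Il18r1 (4.61-fold) were lower at P0 than at E16.5, and Il5ra was higher, from 3 UMIs to 164, a ratio of 5.27 (1.77 to 25.8), beside 2.47% of all genes. The calls on Il4 and Il18r1 were lost without shared barcodes, at folds of 3.93 and 3.75, and without E16.5 HP 1, at 3.72 and 3.65. That on Il9r was lost without E16.5 HP 1 at a fold of 7.59, with fewer than 20 UMIs left. In these codes the 5 eosinophil markers summed to 10.7 CPM at E16.5 and 2816 at P0, the T cell list to 281 and 8.02 CPM and the mast cell list to 4730 and 1722 CPM, and their part in these values was not tested.

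Of the 3 stages set against each other here, the IL-1 genes of neutrophil codes were highest at P0. Il1b was at least 256-fold higher at P0 than at E16.5, where it had 0 UMIs, and in the adult it had 2 UMIs in 528 cells, a ratio of 1041 (266 to 8952). Il1r2 was 39.4-fold higher at P0 than at E16.5 and 39.6-fold lower again in the adult, and 9.20% and 3.20% of all genes passed in these comparisons. The P0 group was 28 cells. The neutrophil list summed to 71960, 245085 and 322042 CPM in the E16.5, P0 and adult codes, and its part in these values was not tested. In DCs at P0 Il1b was higher than at E16.5 by 12.1 (3.85 to 60.9), Il1r2 at least 9.41-fold, and Il2ra lower by 10.2 (3.14 to 52.5), beside 2.23% of all genes, with T cell markers at 731 CPM at E16.5 and 33.0 at P0. In TCell5 Il4 was lower at P0 by 5.52 (1.81 to 27.5), beside 1.16%. B lineage codes had 0 of 15 members past the fold, beside 1.09%.

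Adult monocyte codes were lower than those of P0 for 10 members, namely Il1a (at least 57.7-fold, 64 against 0 UMIs), Il1b (36.2-fold), Il1r2 (12.4-fold), Il1rn (21.7-fold, from 4 UMIs in the adult), Il13ra1 (18.2-fold), Il18 (15.0-fold), Il2rg (4.14-fold), Il4 (at least 34.3-fold), Il6 (at least 19.9-fold) and Il1rl1 (42.8 against 0.145 CPM, a ratio of 295 with an interval of 80.7 to 2452, from 2 UMIs in the adult). Il31ra was higher by 11.9 (3.97 to 58.9). The background here was 10.1% of all genes. The macrophage list summed to 4313 CPM at P0 and 47.2 in the adult, the mast cell list to 2265 and 48.5, and the neutrophil list to 1293 and 13949, so the codes compared differed in makeup, and their part in these values was not tested.

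In lymphoid codes of the adult, Il2ra was 10.9-fold higher in B lineage cells than at P0 (7.74 against 0.709 CPM) and at least 24.7-fold lower in TCell5 and T/NK codes, where Il1rl1 was at least 12.8-fold and Il17rb, the IL-25 receptor chain, 5.72-fold lower. Il4i1 was higher in B lineage cells by 31.6 (5.29 to 1282) and Il1rl1 lower by 12.4 (3.06 to 108). The backgrounds were 3.04% and 4.08%. In the TCell5 and T/NK class the T cell list summed to 2026 CPM at P0 and 804 in the adult, and the innate lymphoid and NK list to 1806 and 2661 CPM, and their part in these values was not tested. Il31ra, an IL-31 receptor chain, was 33.1-fold higher in adult HSPCs, from 4 UMIs at P0 and 23 in the adult (2.06% of all genes). Il1rl2, the IL-36 receptor, was 4.77-fold and Il18bp, which binds IL-18, 4.39-fold higher in myeloid progenitors, with Il10ra lower by 4.21 (1.33 to 21.4), beside 2.81%. Without shared barcodes Il10ra was 4.03-fold lower and no longer passed, and Il18bp no longer had the minimum of UMIs. Erythroid and megakaryocyte codes had Il9r at least 4.19-fold lower and Il6 lower by 7.55 (1.91 to 65.2), beside 5.18%, and basophil and eosinophil codes Il1r2 lower by 7.52 (2.04 to 62.7), beside 1.75%.

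Adult stroma was higher than P0 stroma for most members that passed. Adult chondrocytes had 10 members higher, namely Il17b (24.3 against 224 CPM, 9.23-fold), Il7 (19.3-fold), Il2rb (9.96-fold), Il6 (8.71-fold), Il17re (8.12-fold), Il15ra (7.26-fold), Il18r1 (6.47-fold), Il17ra (6.28-fold), Il33 (4.45-fold) and Il15 (4.24-fold), and Il1rapl1 10.2-fold lower, beside 9.59% of all genes. Il7 stayed low in these cells at 0.688 CPM, and its fold rests on 4 UMIs at P0 and 21 in the adult. The adult codes (C9, C10 and C11) and those of P0 (C1, C2i, C2ii, C5 and C8) share no name, and the chondrocyte list summed to 49294 CPM at P0 and 68135 in the adult, so that a change of cell types and a change within cells cannot be told apart. The median log2 ratio over the 38 members tested was 0.66, beside 0.04 over all genes.

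Endothelial cells of the adult had Il6st 6.74-fold higher (86.0 against 579 CPM), Il13ra2 18.3-fold (4 against 128 UMIs), Il18bp 4.01-fold, Il33 higher by 8.98 (2.89 to 45.1) and Il34 at least 4.78-fold, and 0 of 25 members lower, beside 6.82% of all genes. Without shared barcodes the fold of Il18bp was 3.996, just under the limit. The P0 code is 1 group of 223 endothelial cells, and the adult has SECs and AECs. Fibroblasts had Il34 13.6-fold, Il1rl1 13.3-fold, Il13ra1 5.87-fold (6.37 against 37.4 CPM), Il18 5.36-fold, Il15ra 4.79-fold, Il6ra 4.78-fold and Il15 4.31-fold higher. The accessory proteins Il1rapl1 (13.3-fold) and Il1rapl2 (13.9-fold), Il31ra (4.63-fold) and Il20ra (22.4, 3.70 to 915) were lower, beside 12.7% of all genes. Il1rl1 in adult fibroblasts was still 3.46 CPM. Here too the codes share no name, with F8 to F13 in the adult and F2, F3i, F3ii, F5 and F7 at P0, and the PaS MSC and fibroblast list summed to 20128 CPM at P0 and 36655 in the adult, and its part in these values was not tested.

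In pericyte codes Il6ra was 11.4-fold higher in the adult (5 against 27 UMIs), Il15ra higher by 30.2 (9.66 to 152), Il33 by 42.1 (6.73 to 1745) and Il2rg lower by 14.7 (3.91 to 124), beside 6.39%. From P0 P2 to adult P4 the pericyte and smooth muscle list went from 8311 to 16456 CPM. The PaS MSC and fibroblast list went from 2131 to 8962 CPM and the erythroid list from 4.28 to 1540, and their part in these values was not tested. Muscle codes had Il17ra 23.6-fold (4.14 against 97.8 CPM) and Il4ra 5.36-fold higher, beside 7.22%. The adult class was the P1 code alone, where the muscle list summed to 1778 CPM and the PaS MSC and fibroblast list to 2709 CPM, beside 1766 and 1398 CPM at P0, and their part in these values was not tested. Between E16.5 and P0 fewer stromal members passed. Il6ra was 4.09-fold higher in chondrocytes and 10.5-fold in fibroblasts, Il34 6.86-fold in chondrocytes and Il20rb 4.11-fold in fibroblasts (1.52% and 2.59% of all genes). In muscle codes Il17ra was 7.00-fold, Il11 5.68-fold (5 against 23 UMIs) and Il15ra 4.94-fold (6 against 24 UMIs) higher and Il17b 11.9-fold lower (2.62%). From E16.5 to P0 the chondrocyte list rose from 24944 to 49294 CPM in chondrocytes. The PaS MSC and fibroblast list rose from 10762 to 20128 CPM in fibroblasts and from 401 to 1398 in muscle codes. The muscle list fell from 2486 to 1766 CPM in muscle codes, and the part of these lists was not tested. Schwann cell and endothelial codes had 0 members past the fold, of 8 and 12 tested, beside 1.20% and 1.63%.

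The remaining members were low. The 31 that were not named by level reached between 1.15 and 68.5 CPM where a cluster had 20 UMIs, with Il13ra2, Il17rd (67.0 CPM in adult F11), Il5ra, Il21r, Il27ra and Il17re above 50. For 7 of them (Il10, Il17f, Il19, Il24, Il25, Il27 and Il1bos) no cluster reached 20 UMIs, and their totals over all libraries were 16 to 82 UMIs. Il2, the ligand of the receptor that Il2ra belongs to, had 729 UMIs in all and reached 1.93 CPM, in E18.5 C5. A low value does not show that a cytokine is not made.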

How the data were processed

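Single-cell RNA (10x 3' chemistry) and antibody tags were counted by the authors. Per the submitters' processing notes, Cell Ranger 3.1.0, mm10, R 4.0 and Seurat 3.1.5 were used. The deposited matrices held raw UMI counts of 20275 genes and counts of 29 antibodies in 56201 cells, after the authors' filters on UMIs, mitochondrial share and genes seen in few cells. Cluster codes came from the deposited cell annotation; its 14 other columns were not used.

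Counts were summed per library and cluster (Python 3.11.15, numpy 2.4.6, pandas 2.3.3) and given as CPM with exact Poisson intervals (scipy 1.17.1, 95%). With 1 library per stage outside the E16.5 HPs, no model was fitted. edgeR 4.0.16 and DESeq2 1.42.0 (R 4.3.3) gave scaling alternatives only. The calling rule was run on simulated Poisson counts. These hold no spread between libraries, so they do not show how the rule behaves on these data. Shares of cells were repeated after thinning to 1000 UMIs. Antibody positivity was a centered log-ratio above 1. Doublets were not called, and leaving out the 5% of cells with the most UMIs was an alternative.

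Named genes were ligands that reached 20 CPM and receptors that reached 100 CPM in a cluster of at least 20 cells with at least 20 UMIs, and every member past the stage fold. The members, lists and rules were chosen with earlier results of these data known. RefSeq windows (GRCm38.p6) were found for 51 of the 67 members. Depth ran from 6747 to 23291.5 median UMIs per cell.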

Additional observations from a re-analysis of the deposited data

Results flagged for a closer look

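Some members moved past 4-fold in opposite directions in different cell types between the same stages. Each stage was 1 library outside the E16.5 HPs, and the difference between cell types was not tested in any of these cases. From P0 to the adult, Il13ra1 was 18.2-fold lower in monocyte codes and 5.87-fold higher in fibroblasts, and Il18 was 15.0-fold lower and 5.36-fold higher in the same cells. Il31ra was 33.1-fold higher in HSPCs and 11.9-fold higher in monocyte codes, and 4.63-fold lower in fibroblasts, with 4, 3 and 5 UMIs in the lower groups. Il2ra was 10.9-fold higher in B lineage codes and at least 24.7-fold lower in TCell5 and T/NK codes.

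Il1rl1 was 13.3-fold higher in adult fibroblasts and lower in 4 HP classes. It was 4.35-fold lower in HSPCs and at least 12.8-fold lower in TCell5 and T/NK codes. Set against a floor of 3 counts, the values were 8.26 in B lineage codes and 197 in monocyte codes, where the adult had 2 UMIs each and the ratios of the counts were 12.4 (3.06 to 108) and 295 (80.7 to 2452). Il6 was 8.71-fold higher in adult chondrocytes and at least 19.9-fold lower in monocyte codes, and in erythroid and megakaryocyte codes it stood at 5.03 against the floor of 3 counts, with a ratio of 7.55 (1.91 to 65.2) from 2 adult UMIs. From E16.5 to P0, Il7r was 12.3-fold lower in HSPC codes and 6.03-fold lower in basophil and eosinophil codes, and 5.06-fold higher in mast cells. T cell and mast cell marker lists also fell in the HSPC codes and in the basophil and eosinophil codes. Their part in these values was not tested.

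CD127 tags were also counted outside the library in which they were compared with Il7r. There were 8 in E16.5 HP 1, 51 in E18.5 HP, 146 in P0 HP and 73 in adult HP, and 106, 187, 703 and 801 in stroma from E16.5 to the adult. In P0 stroma 90 of 100 cells with at least 2 tags were in F7, and in adult stroma 92 of 124 were in F8, and these cells held 0 Il7r UMIs.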

How the results depend on the processing

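No paired analysis was possible because only the E16.5 HPs had more than 1 library and no test was made. No stage call reversed in any setting. Of 91 calls in all, TMM and DESeq2 scaling each gave 91, of which 85 were the same, and leaving out shared barcodes gave 91, of which 85 were the same. For P0 against E16.5 in HPs (21 calls), leaving out E16.5 HP replicate 1 or 2 gave 19 and 6, among 163 and 76 values tested in place of 165. A minimum of 50 UMIs gave 11 there, 13 for adult against P0 HPs and 21 for stroma. A 2-fold limit gave 38, 25, 60 and 63 calls and an 8-fold limit 11, 2, 18 and 17 (P0 HPs, P0 stroma, adult HPs, adult stroma). At 100 CPM, 12 members in place of 19 were above the level in stroma. The IL33R ratio was 3.47 at a log-ratio limit of 0.75 and 3.098 at 1.5, and the CD127 ratio 2.43 at 0.75. Of 36 named levels, a denominator without mitochondrial and ribosomal genes moved 3 by over 1.5 times, Il2rb in adult T/NK (322 to 571 CPM), Il12a in LymP (150 to 241) and Il1rl1 in Mast1 (852 to 1284). A mean of per-cell CPM moved 2, Il1b in P0 Neu2 (358 to 629) and Il7r in UD1 (1151 to 1727), and leaving out shared barcodes moved 0. The share of stage calls that were higher at P0 was 55.2%, and 71.4% without E16.5 HP replicate 2, where 4 HP classes had too few cells to be tested. The cause of these shifts was not tested beyond what each setting removes.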
